A study of Mus musculus with 8 samples.

Results

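Transcripts of 10 S100, annexin and galectin genes were followed in effector CD8 T cells of the mouse liver. The genes were S100a4, S100a6, S100a10, S100a11 and S100a13 of the S100 family, Anxa1, Anxa2 and Anxa6 of the annexin family, and Lgals1 and Lgals3 of the galectin family. They were chosen by symbol, as genes of these families known from effector T cells, out of 22609 genes in the count tables. The choice was made with earlier results of these data known. All 10 passed the filter on low counts, as did 10073 genes in all. RNA came from livers of male C57BL/6J mice, 6 weeks old, that had received an agonist antibody against CD137 on days 0, 3 and 6. Livers were taken on day 8, and no untreated mice were included. Live cells were sorted as CD45+, MHCII-, NK1.1-, TCRβ+, CD8α+ and CD4- and, within these, as KLRG1+ and CD127-, the profile of short-lived effector cells. The sorted cells were divided into a CD11c+ and a CD11c- subset of 4 libraries each, and the comparison asks how these effector cells differ with surface CD11c. The labels number the libraries 1 to 4 in each subset without naming the mice or saying how many cells were pooled. The p-values therefore measure the spread between libraries, which may be technical.

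S100 proteins are small calcium sensors with a pair of EF-hand motifs; most act as dimers that bind a target protein when calcium rises. Annexins bind acidic phospholipids in a calcium-dependent way and take part in membrane repair, vesicle traffic and the anchoring of the actin cortex, and several of them form complexes with an S100 dimer. Galectins are lectins that bind beta-galactosides on glycoproteins and leave the cell without a signal peptide. In CD8 T cells, transcripts of several of these genes are low in naive cells and increase with effector differentiation.

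The libraries held 5090345 to 7093163 reads in genes and between 10482 and 12581 genes with at least 1 read. Itgax, the gene of CD11c, was 24.3-fold higher in the CD11c+ libraries (adjusted p = 0.0001361, edgeR quasi-likelihood test with Benjamini-Hochberg adjustment over all tested genes). The summed level of 6 CD8 T cell markers was 5607 to 6916 CPM, the gene counts scaled to 1000000 reads per library, in CD11c+ and 5802 to 6315 CPM in CD11c- libraries. Markers of other cell types summed to lower levels, and which cells these transcripts came from was not tested. The 12 monocyte, macrophage and Kupffer cell markers in the files summed to 161 to 442 CPM in CD11c+ and 147 to 264 CPM in CD11c- libraries. The 7 neutrophil markers in the files summed to 2.27 to 282 CPM and 7 to 115 CPM, with Mpo at 0 in every library. The highest sum of both myeloid lists together, 725 CPM, was in CD11c+ replicate 3, and its part in the values of the 10 genes was not tested. In bulk RNA of this kind, fewer cells that carry a transcript and less transcript per cell cannot be told apart.

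The 5 S100 genes are on chromosome 3. In the RefSeq order, 4 coding genes (S100a14, S100a16, S100a3 and S100a2) were between S100a13 and S100a4, S100a5 was between S100a4 and S100a6, and 59 coding genes were between S100a6 and S100a11, which has S100a10 as its next neighbour. The bases just before 3 of the start sites are shown because these S100 genes had positive correlations across the 8 libraries, as described below. None of the pairs among these genes passed adjustment. Each is the 250 bases before the RefSeq start of the gene in GRCm38.p6, written along the gene's strand: chr3:90603520-90603769 (+) for S100a4, chr3:90612644-90612893 (+) for S100a6 and chr3:93520246-93520495 (+) for S100a11. Capitals mark matches on either strand to 5 short motifs. The AP-1 motif was searched as TGANTCA. The RUNX motif was searched as TGTGGT. The T-box motif was searched as TCACAC. The KLF motif was searched as CACCC. The TATA box was searched as TATAAA.
S100a4: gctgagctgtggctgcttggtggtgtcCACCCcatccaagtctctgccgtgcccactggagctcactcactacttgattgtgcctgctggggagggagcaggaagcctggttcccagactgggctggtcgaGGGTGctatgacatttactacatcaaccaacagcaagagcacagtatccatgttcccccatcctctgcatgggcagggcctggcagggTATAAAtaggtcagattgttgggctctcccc
S100a6: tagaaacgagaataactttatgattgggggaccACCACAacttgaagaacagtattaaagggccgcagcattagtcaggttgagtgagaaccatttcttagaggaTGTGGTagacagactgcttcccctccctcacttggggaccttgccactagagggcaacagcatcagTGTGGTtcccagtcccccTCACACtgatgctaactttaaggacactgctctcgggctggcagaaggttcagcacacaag
S100a11: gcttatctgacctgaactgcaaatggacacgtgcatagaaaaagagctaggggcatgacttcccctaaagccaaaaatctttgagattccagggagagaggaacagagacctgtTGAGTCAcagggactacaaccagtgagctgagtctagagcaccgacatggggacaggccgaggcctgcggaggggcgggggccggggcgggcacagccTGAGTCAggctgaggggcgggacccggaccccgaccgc
The 3 sequences held different motifs. S100a4 had the KLF motif starting at position -223 and, on the other strand, at position -119, and the TATA box at position -31, counted back from the start site. S100a6 had the RUNX motif at -145 and -79 and, on the other strand, at -217, and the T-box motif at -61. S100a11 had the AP-1 motif at -136 and -38. None of these matches overlapped another. Sequences of this kind were found for 7 of the 10 genes (not for S100a10, Anxa6 and Lgals1). The AP-1 motif was in 2 of the 7 and in 6.87% of 27025 such sequences of all genes, the RUNX motif in 1 and 14.2%, the T-box motif in 2 and 12.2%, the KLF motif in 4 and 51.3%, and the TATA box in 3 and 13%. S100a13, not shown, had the KLF motif at -105 and -88 and, on the other strand, the T-box motif at -163. A stretch of bases after the start was found unbroken in a GENCODE transcript of the gene for S100a6 and S100a11. It was not found for S100a4 and S100a13, so their motif positions rest on the RefSeq start alone. None of the 5 motifs was in all 4 S100 genes that had a sequence, and a match says only that the letters are there.

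The 10 genes together took 1.03% to 1.30% of gene reads in the CD11c+ libraries and 1.20% to 1.35% in the CD11c- libraries. Levels were compared between genes after division by the length of all exons of a gene (GENCODE, GRCm38), as CPM per kilobase averaged over the 8 libraries. Lgals1 was highest at 4326 CPM per kilobase, followed by S100a10 at 2622 and S100a4 at 1437. Anxa2 was at 1044, Anxa6 at 997, S100a6 at 802, S100a11 at 605, S100a13 at 367 and Lgals3 at 225 CPM per kilobase. Anxa1 was far below the other 9, at 2.90 CPM per kilobase. Each gene was above the next in this order in all 8 libraries, except S100a4 over Anxa2 in 6, Anxa2 over Anxa6 in 5 and Anxa6 over S100a6 in 7. S100a4, Anxa2 and Anxa6 are therefore neighbours whose order varied between libraries. Of the stretches of 50 bases in each transcript, the read length used, 47.4% for S100a4 also lay in an overlapping gene model on the same strand, Gm42674, with which S100a4 shares 302 exon bases. For S100a11, 41.1% were found in 3 other genes, for Anxa2 1.35% in 1 other gene, and for the other 7 genes none. Reads from such stretches can be lost or split, so the absolute levels of S100a4 and S100a11 are uncertain.

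None of the 5 S100 genes passed the test between the subsets, and in all 5 the CD11c+ mean was the lower. S100a4 binds non-muscle myosin and is known from motile and effector memory cells. It was at 696, 470, 913 and 453 CPM in CD11c+ replicates 1 to 4 and at 811, 756, 858 and 769 CPM in CD11c- replicates 1 to 4. The CD11c+ libraries thus ran from well below to above the whole CD11c- range, with replicates 2 and 4 lowest and replicate 3 highest. The means were 633 ± 217 CPM in CD11c+ and 799 ± 46.2 CPM in CD11c- libraries (SD, n = 4 each), a log2 fold change of -0.34 with a standard error of 0.19 (adjusted p = 0.9909, edgeR).

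S100a6, which binds the ubiquitin ligase adaptor Cacybp and several annexins, was likewise highest in replicate 3 and low in replicates 2 and 4 of CD11c+. It was at 695, 454, 804 and 551 CPM in CD11c+ and at 690, 653, 688 and 654 CPM in CD11c- libraries. The CD11c- values lay close together inside the CD11c+ range. The log2 fold change was -0.10 with a standard error of 0.15 (adjusted p = 0.9923, edgeR).

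S100a10 differs from other S100 proteins in that it does not need calcium and is held in a complex with the Anxa2 protein, with Ahnak as a further partner. It was the most abundant S100 transcript, at 2007, 1544, 2514 and 1673 CPM in CD11c+ and 2525, 1910, 2321 and 2328 CPM in CD11c- libraries. Replicate 3 was again the highest and replicate 2 the lowest CD11c+ library, and the subsets overlapped. The log2 fold change was -0.23 with a standard error of 0.14 (adjusted p = 0.9909, edgeR).

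S100a11, a partner of the Anxa1 and Anxa2 proteins, was at 270, 262, 354 and 249 CPM in CD11c+ and 317, 347, 323 and 353 CPM in CD11c- libraries. CD11c+ replicates 1, 2 and 4 lay below all CD11c- libraries, and replicate 3 was just above them. Its log2 fold change was -0.24 with a standard error of 0.13 (adjusted p = 0.9909, edgeR). S100a13, which assists the export of proteins without a signal peptide, was at 222, 220, 290 and 245 CPM in CD11c+ and 300, 258, 256 and 307 CPM in CD11c- libraries. Replicate 3 was the only CD11c+ library inside the CD11c- range. S100a13 had a log2 fold change of -0.20 with a standard error of 0.13 (adjusted p = 0.9909, edgeR).

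Among the annexins, the unadjusted edgeR p was under 0.05 for Anxa1, higher in CD11c+, and for Anxa2, lower in CD11c+, and none of the 3 passed after adjustment. Anxa1 encodes an inhibitor of phospholipase A and ligand of formyl peptide receptors that is abundant in neutrophils and monocytes. It was the rarest of the 10 transcripts, with 18, 31, 122 and 40 reads in the CD11c+ libraries and 2, 15, 16 and 9 reads in the CD11c- libraries. These counts gave 3.52, 5.41, 21.7 and 6.24 CPM in CD11c+ and 0.371, 2.10, 3.01 and 1.59 CPM in CD11c- libraries. All 4 CD11c+ libraries were above all 4 CD11c- libraries, which held for 1.60% of all tested genes, and no other of the 10 genes was free of overlap. The means were 9.23 ± 8.42 and 1.77 ± 1.10 CPM (SD, n = 4 each), with a fitted fold of 5.16, or a log2 fold change of 2.37 with a standard error of 0.78. The unadjusted p was 0.01024 and the adjusted p 0.945 (edgeR quasi-likelihood test). Without CD11c+ replicate 3 the log2 fold change was 1.499 with a standard error of 0.82. That library had the highest Anxa1, so leaving it out lowers the fold change by construction, and no test is read from that fit.

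CD11c+ replicate 3 was also the library with the most myeloid marker transcript. The neutrophil genes S100a8 and S100a9, which encode the subunits of calprotectin, were at 20.5, 1.22, 153 and 23.9 CPM and at 4.69, 1.05, 103 and 13.3 CPM in the CD11c+ libraries. In the CD11c- libraries S100a8 was at 13.9, 4.20, 58.9 and 33.1 CPM and S100a9 at 12.3, 1.96, 34.8 and 15.2 CPM. Lyz2, the lysozyme of monocytes and macrophages, was at 18.4, 48.4, 265 and 129 CPM in CD11c+ and 73, 33.1, 143 and 81.6 CPM in CD11c- libraries. Replicate 3 had the highest S100a8, S100a9 and Lyz2 of each subset, and the highest Anxa1 of each subset. CD11c+ replicates 1 and 2 had less S100a8, S100a9 and Lyz2 than CD11c- replicate 3 and more Anxa1. Over the 8 libraries, log2(CPM + 1) of Anxa1 and the log2 of the summed myeloid markers had r = 0.63 (Spearman rho = 0.36), with an exact two-sided permutation p = 0.09958 for r, or 0.5924 after adjustment over 30 relations. With the subset means subtracted r was 0.74, and without CD11c+ replicate 3 and CD11c- replicate 2, the farthest in myeloid markers, it was -0.05. The part of these cells in the Anxa1 difference was not tested.

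**Figure D1:**
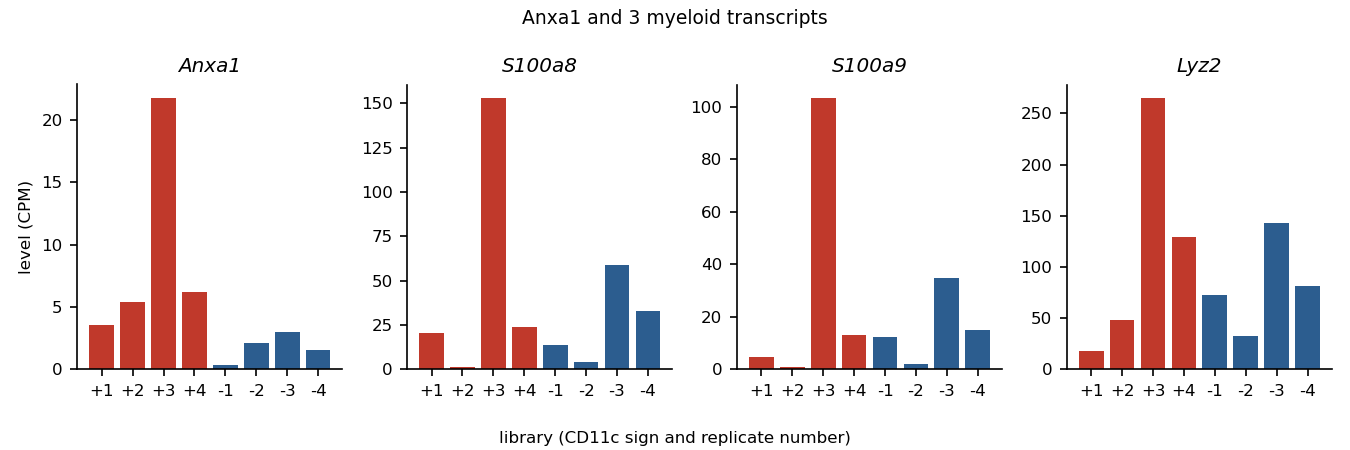
Bars give the level in CPM of Anxa1 and of 3 myeloid transcripts, S100a8, S100a9 and Lyz2, in each of the 8 libraries (red, CD11c+; blue, CD11c-; numbers are replicates). CD11c+ replicate 3 was highest for all 4 genes, at 21.7 CPM for Anxa1 and 153 CPM for S100a8; the other CD11c+ libraries were above every CD11c- library for Anxa1 but not for the other 3.

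Anxa2, a calcium-dependent linker of membrane and actin that also binds plasminogen activator, was at 1269, 1403, 1441 and 1478 CPM in CD11c+ and 1469, 1665, 1485 and 1879 CPM in CD11c- libraries. The subsets overlapped at CD11c+ replicate 4 and CD11c- replicate 1. The means were 1398 ± 91.4 and 1624 ± 192 CPM (SD, n = 4 each) and the log2 fold change -0.22 with a standard error of 0.10. The unadjusted p was 0.04328 and the adjusted p 0.9909 (edgeR). Anxa6, an annexin known from cholesterol traffic and membrane repair, was at 2391, 2587, 2256 and 2325 CPM in CD11c+ and 2613, 2476, 2512 and 2699 CPM in CD11c- libraries. The subsets overlapped. Anxa6 had a log2 fold change of -0.11 with a standard error of 0.07 (adjusted p = 0.9909, edgeR).

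The galectin transcripts differed between the subsets by less than the spread between libraries. Lgals1, whose secreted product binds glycans of CD45 and CD43 on T cells, was at 2986, 3028, 4019 and 3591 CPM in CD11c+ and 3101, 3510, 3343 and 4107 CPM in CD11c- libraries. Its means were 3406 ± 493 and 3515 ± 429 CPM (SD, n = 4 each), with a log2 fold change of -0.05 and a standard error of 0.11 (adjusted p = 0.9923, edgeR). Lgals3, the galectin with a collagen-like tail that binds branched N-glycans and Lag3, was at 378, 304, 379 and 402 CPM in CD11c+ and 310, 368, 341 and 377 CPM in CD11c- libraries. Lgals3 had a log2 fold change of 0.07 with a standard error of 0.12 (adjusted p = 0.9923, edgeR). For both genes the ranges of the subsets covered each other almost whole.

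**Figure D2:**
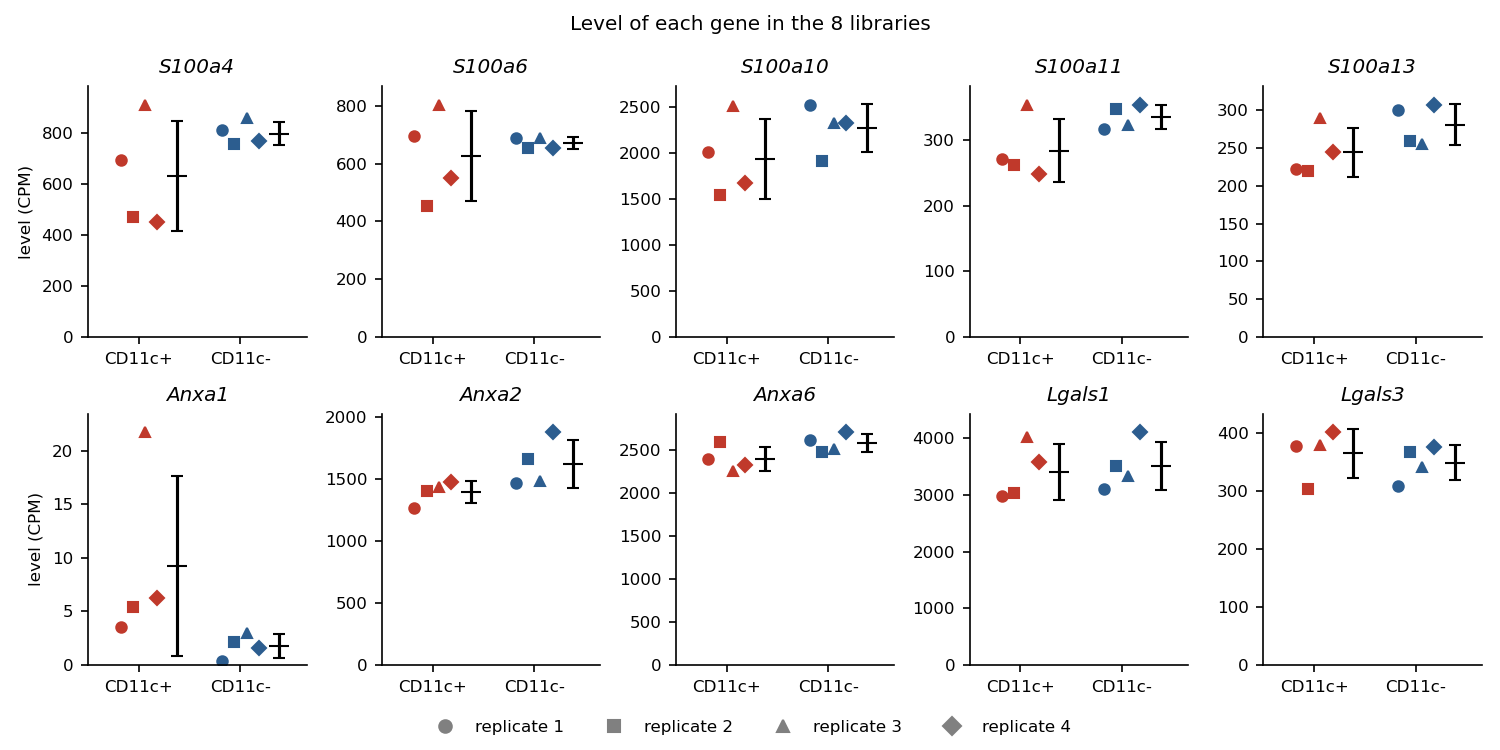
Each panel plots the level of 1 gene in CPM, from 0, in the 4 CD11c+ (red) and 4 CD11c- (blue) libraries, with marker shapes for replicates 1 to 4 and black bars for the mean ± SD. The subsets overlap for every gene but Anxa1, and S100a4 and S100a6 spread more widely in CD11c+ than in CD11c- libraries.

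Of the 10 genes, 0 passed an adjusted p of 0.05 in edgeR, against 0.0496% of all tested genes. DESeq2 and limma voom also called 0 of the 10, against 0.300% and 0.189% of all tested genes. At an unadjusted p under 0.05 edgeR gave Anxa1, higher in CD11c+, and Anxa2, lower in CD11c+, that is 2 of 10 against 4.70% of all tested genes. No excess is read from this count, since the 10 genes were chosen with earlier results of these data known. The log2 fold change was below 0 for 8 of the 10 genes, with a median of -0.15, while the mean was 0.10 through Anxa1. Over all tested genes 48.3% of log2 fold changes were below 0 and the median was 0.01. The 5 S100 genes had a median of -0.23. Among 284 other tested genes with at most 1000 exon bases and at least 10 CPM, 58.5% were below 0 and the median was -0.04. No gene had all 4 CD11c- libraries above all 4 CD11c+ libraries, a pattern of 1.85% of all tested genes.

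The size of the S100 differences varied with the libraries included. With each library left out in turn, the log2 fold change of S100a4 ran from -0.57 without CD11c+ replicate 3 to -0.21 without CD11c+ replicate 4. That of S100a10 ran from -0.39 without CD11c+ replicate 3 to -0.15 without CD11c+ replicate 2, and that of S100a6 from -0.25 to 0.0167 without the same libraries. S100a11 ran from -0.37 without CD11c+ replicate 3 to -0.19 without CD11c+ replicate 4, and S100a13 from -0.30 without CD11c+ replicate 3 to -0.16 without CD11c+ replicate 1. CD11c+ replicate 3 was the highest CD11c+ library in all 5 genes, so leaving it out lowers the CD11c+ mean by construction, and no test is read from that fit. The 3 libraries with the lowest gene number were CD11c+ replicates 1 and 2 and CD11c- replicate 1. Without them only replicates 3 and 4 of CD11c+ remained. In that fit S100a4 was at -0.23, S100a11 at -0.19, S100a10 at -0.0728, S100a13 at -0.0448 and S100a6 at 0.0168.

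**Figure D3:**
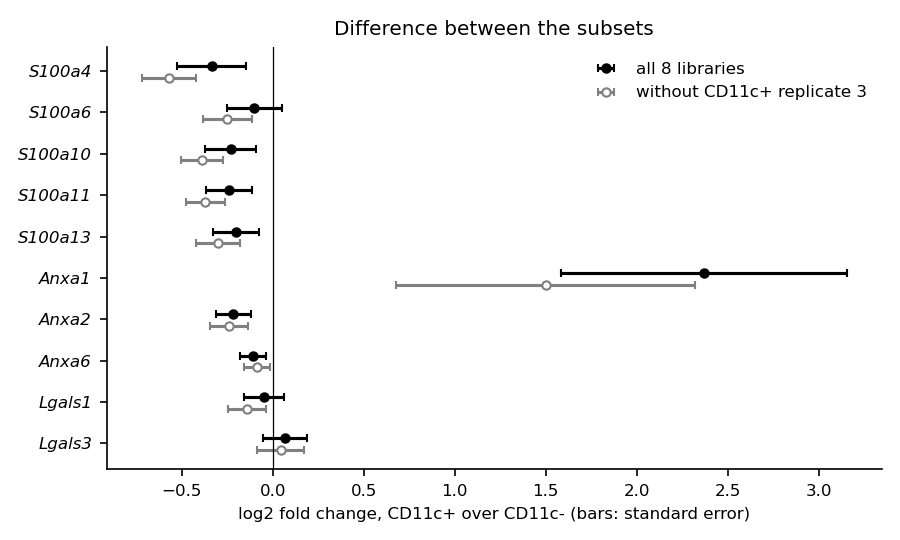
Points give the log2 fold change of each gene, CD11c+ over CD11c-, from edgeR, with bars of 1 standard error, for all 8 libraries (filled) and without CD11c+ replicate 3 (open). S100a4 moved from -0.34 to -0.57 and Anxa1 from 2.37 to 1.499 when that library was left out.

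The spread between libraries was unequal. The coefficient of variation of S100a4 was 34.3% over the CD11c+ and 5.78% over the CD11c- libraries, and that of S100a6 was 24.7% and 3.07%. It was larger in CD11c+ libraries for 9 of the 10 genes and for 66.5% of all tested genes. The difference in spread was not tested.

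The 5 S100 transcripts were positively correlated over the 8 libraries, and all 5 spread more widely in CD11c+ than in CD11c- libraries. All 10 pairs of S100 genes had a positive Pearson r of log2(CPM + 1) over the 8 libraries, from 0.58 to 0.92 with a median of 0.79. The median was 0.70 once each subset's mean was subtracted. Within the CD11c- libraries alone S100a11 ran the other way from S100a4 and S100a6. It was higher in CD11c- replicates 2 and 4 (347 and 353 CPM) than in 1 and 3 (317 and 323 CPM). S100a4 and S100a6 were both higher in CD11c- replicates 1 and 3 than in 2 and 4. Over all 2492028 pairs of the 2233 tested genes with at least 100 CPM the median r was 0.01, and 50.5% were positive. Over 6670 pairs of 116 other short genes of that level the median was 0.51, and 5819 were positive. A positive sign alone was therefore common among pairs of short genes. These correlations share their libraries and the scaling by depth. Of 45 pairs among the 10 genes, 36 had a positive r and the median was 0.31. Pairs of an S100 gene and an annexin had a median r of 0.06, and pairs of an S100 gene and a galectin had 0.33.

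The permutation over all 8 libraries treats them as independent and exchangeable across the subsets. Deviations of equal replicate numbers from their subset means correlated at 0.08 to 0.19 over the tested genes, so this may not hold. After adjustment over the 45 pairs, 2 pairs passed. S100a4 and S100a10 had r = 0.92 (exact two-sided permutation p = 0.00186, adjusted 0.04185) and Spearman rho = 0.83 (exact p = 0.01538, adjusted 0.245). S100a6 and S100a10 had r = 0.88 (exact two-sided permutation p = 0.001637, adjusted 0.04185) and rho = 0.79 (exact p = 0.02793, adjusted 0.2513). Without the libraries farthest from the median, CD11c+ replicates 2 and 4, r was 0.75 for the first pair and 0.53 for the second. The exact permutation p-values were then 0.09167 and 0.3083 (adjusted 0.5893 and 0.7187). Within subsets, r was 0.89 and 0.88 (exact permutation p = 0.02257 and 0.01736, adjusted 0.3385 for each). Fewer pairings make an adjustment over 45 pairs hard to pass and limit how low a p-value can be. The p-values of these 2 designs are therefore not comparable with those over all 8 libraries. Leaving out the farthest libraries also narrows the range of the first gene, which can lower r by construction. Scaled by library size only, r was 0.92 and 0.87 and the adjusted exact permutation p 0.06362 for each. S100a4 and S100a6, next but one to each other on the chromosome, had r = 0.90 (adjusted exact permutation p = 0.05357, rho = 0.71).

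None of the 15 pairs of an S100 gene and an annexin passed, those whose proteins form complexes included. S100a10 and Anxa2 had r = 0.21 (rho = 0.14, exact two-sided permutation p = 0.6173, adjusted 0.8801), and S100a11 and Anxa1 had r = -0.11 (rho = -0.19, exact p = 0.7991, adjusted 0.9628). S100a11 and Anxa2 had r = 0.61 (rho = 0.43, exact p = 0.1091, adjusted 0.324). With subset means subtracted, these 3 values were -0.18, 0.76 and 0.32. S100a6, whose protein binds several annexins, had r = 0.06 with Anxa1, 0.05 with Anxa2 and -0.31 with Anxa6. With subset means subtracted, its values were 0.44, -0.20 and -0.69. With 8 libraries a relation of moderate size is not detectable after this adjustment. The lowest r among the 45 pairs was that of Anxa1 and Anxa6, at -0.78 (rho = -0.81, exact permutation p = 0.01811, adjusted 0.1629), and it was -0.58 with subset means subtracted.

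**Figure D4:**
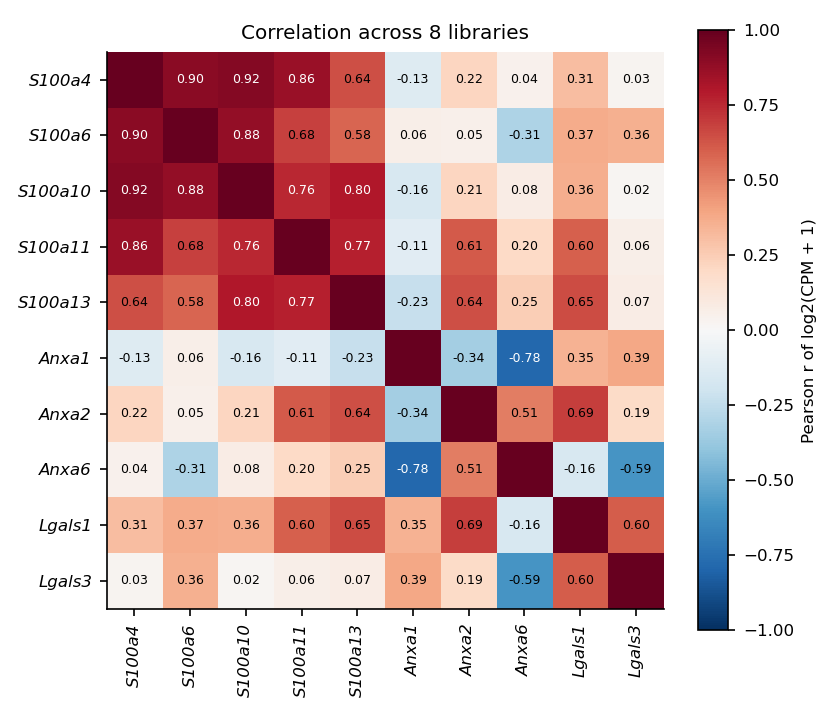
The colour and number in each square give the Pearson r of log2(CPM + 1) between 2 of the 10 genes over the 8 libraries, on a scale from -1 (blue) to 1 (red). The 10 S100 pairs in the upper left corner are all positive, between 0.58 and 0.92, and the lowest r, -0.78, is that of Anxa1 and Anxa6.

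Several of the 10 genes have short transcripts, and short transcripts shared variation in these libraries. A short-transcript index, the median deviation of the 284 other short genes from their means on the log2 scale, was added after the data were seen. It was -0.13, -0.18, 0.18 and 0.02 in CD11c+ and -0.000907, -0.03, -0.04 and 0.18 in CD11c- replicates 1 to 4. Lgals1 followed it with r = 0.93 (exact two-sided permutation p = 0.001959, adjusted over 10 genes 0.01959; rho = 0.90). S100a13 followed it with r = 0.85 (exact two-sided permutation p = 0.009747, adjusted 0.04874; rho = 0.81). Without CD11c+ replicate 3 and CD11c- replicate 4, the farthest in the index, r was 0.74 and 0.75. Within subsets r was 0.93 (adjusted exact permutation p = 0.09549) and 0.91 (adjusted 0.01736). S100a4 had r = 0.48 with the index (exact permutation p = 0.2095). With the index removed from both genes by a straight line, the median r of the 10 S100 pairs was 0.62, and that of the pairs of an S100 gene and a galectin -0.42. No such median was taken for pairs of other short genes, so the 0.62 has no background beside it. The number of detected genes, the share of reads outside genes and the summed myeloid markers gave 30 relations with the 10 genes, of which 0 passed adjustment. Anxa2 with the number of detected genes had the lowest unadjusted p (r = 0.70, rho = 0.76, exact permutation p = 0.04571, adjusted 0.5924).

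**Figure D5:**
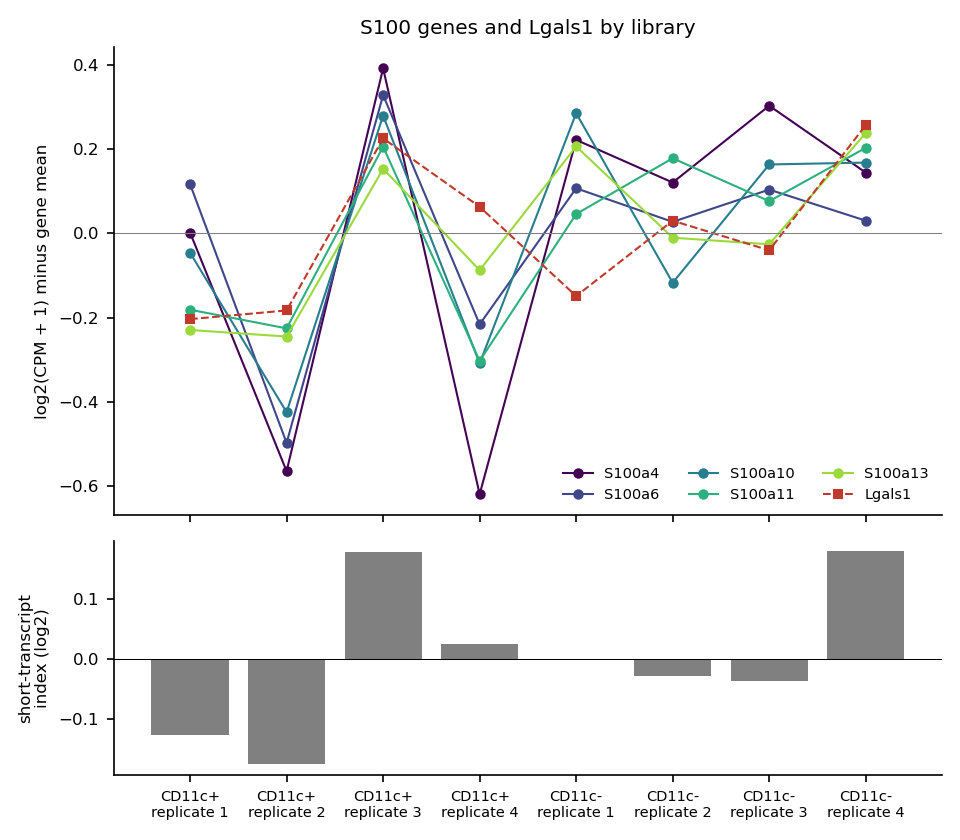
The upper panel plots log2(CPM + 1) of the 5 S100 genes and Lgals1 minus each gene's mean, by library; the lower panel plots the short-transcript index, a log2 deviation, in the same libraries. CD11c+ replicate 2 is low and replicate 3 high in both panels, while CD11c- replicate 4 is high in the index, at 0.18, and in Lgals1 but not in S100a4.

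The genes whose pattern over the 8 libraries was most like that of a chosen gene were read off from the tested genes with at least 10 CPM (7981 for S100a4), as a description. For S100a4 they were Gng10, a G protein gamma subunit (r = 0.97), Cd3g, a chain of the T cell receptor complex (r = 0.97), and Phtf1 (r = 0.95). For Anxa1 they were Hnrnpa0 (r = 0.95), Rab11b (r = 0.94) and Aebp2 (r = 0.93). For Lgals3 they were Nfu1 (r = 0.95), Trim28 (r = 0.94) and Inf2 (r = 0.93). Each is the highest of all values searched, over 8 libraries.

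Of 28 other genes listed for the 3 families, 27 were in the files. Of these, 6 had no read in any library, 13 were at most at 1 CPM in every library (those 6 included), and 9 passed the filter on low counts. None of the 9 passed the test, adjusted or at an unadjusted p under 0.05, and 6 had a log2 fold change below 0, with a median of -0.19. Lgals9, a galectin that binds the Havcr2 protein, was highest, at 294 ± 56.3 CPM in CD11c+ and 335 ± 48.3 CPM in CD11c- libraries (SD, n = 4 each). Anxa5, known as the probe for exposed phosphatidylserine, was at 117, 119, 201 and 185 CPM in CD11c+ and 206, 189, 211 and 192 CPM in CD11c- libraries. Replicates 1 and 2 of CD11c+ were low. Its log2 fold change was -0.36 with a standard error of 0.18 (unadjusted p = 0.06985, adjusted p = 0.9909, edgeR). Anxa7 was at 109 ± 10.5 and 117 ± 5.03 CPM.

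Of 21 listed binding partners and receptors, 12 were tested, 10 had a log2 fold change above 0 with a median over the 12 of 0.05, and 0 passed the adjusted test. Havcr2, which encodes an inhibitory receptor of T cells, had an unadjusted p under 0.05, with 310 ± 71.8 CPM in CD11c+ and 228 ± 60.5 CPM in CD11c- libraries (SD, n = 4 each) and a log2 fold change of 0.44 with a standard error of 0.20 (unadjusted p = 0.04282, adjusted p = 0.9909, edgeR). Its CD11c- replicate 2, at 318 CPM, was above 3 of the CD11c+ libraries. Ptprc, the gene of the galectin-bound surface phosphatase CD45, was at 2538 ± 279 and 2401 ± 229 CPM. Itgb1, an integrin beta chain, was at 586 ± 139 and 576 ± 146 CPM, and Ahnak, the scaffold bound by S100a10 and Anxa2, at 455 ± 93.5 and 447 ± 106 CPM. These 3 overlapped between the subsets.

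A further 19 genes are known to go with S100a4 in effector T cells. All 19 were tested, 8 had a log2 fold change above 0 and 11 below, the median was -0.02, and 0 passed the adjusted edgeR test. At an unadjusted p under 0.05 there were 4 of 19, against 4.70% of all tested genes. The list was chosen with earlier results of these data known, so no excess is read from this count. Plac8, a small cysteine-rich protein of effector and memory cells, was at 73.3, 74.6, 128 and 117 CPM in CD11c+ and 55.5, 30.1, 47.0 and 56.0 CPM in CD11c- libraries. The subsets did not overlap, with CD11c+ above, as for 1.60% of all tested genes. Its log2 fold change was 1.06 with a standard error of 0.25 (unadjusted p = 0.001074, adjusted p = 0.4008, edgeR), and DESeq2 called it (adjusted p = 0.02158), as did limma voom (adjusted p = 0.02869). Ccr2, a chemokine receptor of inflammatory cells, was at 618, 361, 492 and 355 CPM in CD11c+ and 279, 111, 229 and 178 CPM in CD11c- libraries, again with CD11c+ above and no overlap. Its log2 fold change was 1.20 with a standard error of 0.26 (adjusted p = 0.2254, edgeR). DESeq2 called Ccr2 (adjusted p = 0.0005171) and limma voom did not (adjusted p = 0.0647). S1pr5, a receptor for egress by sphingosine phosphate, had a log2 fold change of 1.21 with a standard error of 0.40 (unadjusted p = 0.009818, adjusted p = 0.945, edgeR). Itgb7, an integrin beta chain of gut-homing cells, was at 814, 936, 866 and 904 CPM in CD11c+ and 980, 1077, 1043 and 1242 CPM in CD11c- libraries. All CD11c- libraries were above all CD11c+ libraries, as for 1.85% of all tested genes, with a log2 fold change of -0.30 and a standard error of 0.10 (unadjusted p = 0.007734, adjusted p = 0.9227, edgeR).

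The most abundant of these 19 genes overlapped between the subsets, as S100a4 did. Tmsb4x, an actin-sequestering peptide, was at 9688 ± 2331 and 9143 ± 1007 CPM in CD11c+ and CD11c- libraries (SD, n = 4 each). Lsp1, an actin-binding protein of leukocytes, was at 2032 ± 183 and 2252 ± 114 CPM. Crip1, a LIM-domain protein, was at 1787, 1427, 2319 and 1773 CPM in CD11c+ and 2273, 1671, 2291 and 2297 CPM in CD11c- libraries. As for S100a10, replicate 2 was the lowest library of each subset.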

How the data were processed

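RNA-seq of 8 libraries was analysed, 4 CD11c+ and 4 CD11c-. Each deposited table gives unnormalized read counts by gene symbol for a library. Per the labels' protocols, cDNA was preamplified by a SMART-seq2 protocol and read as single reads of 50 bases. The submitters' processing notes name bcl2fastq, HTSeq and TopHat2 2.0.8b, and build mm9. No annotation or strand setting is named in the sources used here. Reads of overlapping genes on either strand can therefore be mixed. Summary rows, with 63.1% to 67.1% of uniquely placed reads in no gene, stayed out of library sizes. Lengths and shared stretches came from GENCODE vM21 and promoters from RefSeq, both on GRCm38, which differs from mm9.

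Counts were tested in R 4.3.3 with edgeR 4.0.16 (filterByExpr, TMM, glmQLFit and glmQLFTest), CD11c+ minus CD11c-, adjusted by Benjamini-Hochberg over 10073 genes, with a threshold of 0.05. CPM are counts per 1000000 reads of TMM-scaled library size. Correlations used log2(CPM + 1), with exact two-sided tests over all 40320 pairings of libraries, or 576 within subsets. Before averaging, no 2 libraries of a subset differed by read sampling alone (lowest chi-square per degree of freedom 9.43). Steps were tested on simulated data.

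Named genes were the 10 members, members of 3 further lists with an unadjusted p under 0.05 or among the 3 highest others, and the 3 genes most like S100a4, Anxa1 and Lgals3. S100a8, S100a9 and Lyz2 were given as markers of other cells. The members and lists were chosen with earlier results of these data known. Alternatives were library size only, RLE factors, no filter, 5 CPM in 4 libraries, a replicate block, the other quasi-dispersion setting of edgeR, DESeq2 1.42.0, limma 3.58.1 voom with quality weights, and libraries left out. The short-transcript index was added after the data were seen.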

Additional observations from a re-analysis of the deposited data

Results flagged for a closer look

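A library far from the other 3 of its subset was found for 4 of the 24 named genes, in 4 of 48 groups examined, where chance gives about 1 in 20. Anxa1 in CD11c+ replicate 3, at 21.7 CPM, was above the other CD11c+ libraries (3.52 to 6.24 CPM). Havcr2 in CD11c- replicate 2, at 318 CPM, was above the other CD11c- libraries. Tmsb4x in CD11c- replicate 1, at 10643 CPM, was above the other CD11c- libraries. Crip1 in CD11c- replicate 2, at 1671 CPM, was below the other CD11c- libraries (2273 to 2297 CPM).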

How the results depend on the processing

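None of the 10 genes was called under any of 18 settings, where the lowest adjusted p of any was 0.1818 (Anxa1, edgeR, leaving out the 3 libraries of lowest gene number). Those were CD11c+ replicates 1 and 2 and CD11c- replicate 1, so the fit kept CD11c+ replicates 3 and 4, the highest in Anxa1. Over all genes, where the reported fit called 5, the count was 12 with no filter, 8 with at least 5 CPM in 4 libraries, 11 with the other quasi-dispersion setting, 29 with DESeq2, 19 with limma voom, 11 without those 3 libraries, and 1 to 5 with each library left out. With a replicate block it was 13, and Ccr2 passed (adjusted p = 0.005858, edgeR), which it did not without the block. Of the 10 genes 0 were called with the block. An unadjusted edgeR p under 0.05 was then found for 4 of them (S100a4, S100a10, Anxa1 and Anxa2), and for 611 of the 10073 tested genes. Equal numbers are not said to share a mouse, and their deviations correlated at 0.08 to 0.19, with each library correlating best with its own number. The log2 fold changes of the 10 genes changed sign in 5 of 169 alternatives. Without the same 3, S100a6 was at 0.0168 and Lgals1 at 0.0489. With each library left out in turn, S100a6 ranged from -0.249 to 0.0167 and Lgals1 from -0.14 to 0.0259. Among other genes with the same alternatives, Itgb1 ranged from -0.11 to 0.17, Ahnak from -0.0934 to 0.15 and Tmsb4x from -0.0808 to 0.18, and limma voom gave -0.12 for Itgb1 and -0.0900 for Ahnak. The cause was not tested. Anxa1 kept a log2 fold change above 0 in all 16 alternatives that tested it (1.499 to 2.72) and was not tested under the filter of 5 CPM. Of the 45 correlations, 2 passed as reported and 0 with library size only, with subset means subtracted, or without the 2 libraries farthest from the median. With library size only r was 0.92 and 0.87, against 0.92 and 0.88 as reported. In the other 2 designs fewer pairings make the adjustment hard to pass, so their permutation p-values are not comparable with the reported ones. Leaving out the farthest libraries also narrows the range, which can lower r by construction. Anxa1, with 2 to 122 reads per library, is limited by depth.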
